A study of Rattus norvegicus with 24 samples.

Results

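The 8 soleus samples with the highest Pdk4 signal were compared here with the 8 with the lowest, out of 24 arrays that each hold the soleus RNA of 1 rat. The classes were chosen by Pdk4 alone. Its value in the deposited normalized table, minus the mean of its slide, was ranked over the 24 arrays, and the 8 arrays in between form a middle class. The Pdk4 difference is therefore a description with no test, and a difference in another gene says that it varied with Pdk4 between rats, not that a treatment moved it. Values are log2 signals relative to the array's 75th percentile, differences are high minus low with the standard error (SE) of a model with slide as a term, and p was adjusted over 20312 features.

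The rats were female and about 14 weeks old, with 8 in each of 3 groups. Trained rats (TR) had running wheels at will for 8 weeks, detrained rats (DETR) had them for 4 weeks and then none for 4 weeks, and sedentary rats (SED) had ordinary cage activity for 8 weeks. All of them then ran for 1 h in a forced wheel at 20 m/min, and the middle of the soleus was taken 24 h later, so no class holds muscle without that bout. The labels do not say whether the rats had fed before harvest.

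Pdk4 encodes a kinase that switches off the pyruvate dehydrogenase complex and so keeps carbohydrate carbon out of the citrate cycle. In skeletal muscle it is known to be induced by fasting, exercise and circulating fatty acids, largely through the PPAR nuclear receptors, and to be lowered by feeding and insulin. The same receptors are known to induce genes for taking up, storing and burning fat. Ucp3 encodes a mitochondrial carrier whose transcript follows fatty acid supply, and Angptl4 encodes a secreted inhibitor of lipoprotein lipase.

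The stretches just upstream of Pdk4 and of the 2 genes that passed the test are printed because these transcripts moved together. Each is the 250 bases before the gene's start in RefSeq on GRCr8, written 5′ to 3′ on the gene's strand, with capitals on every match to AGGTCA or TGACCT, the hexamer bound by nuclear receptors, on either strand. Pdk4 lies on the minus strand at chr4:34568330-34568579, Ucp3 on the plus strand at chr1:164227660-164227909 and Angptl4 on the minus strand at chr7:15258682-15258931.
Pdk4: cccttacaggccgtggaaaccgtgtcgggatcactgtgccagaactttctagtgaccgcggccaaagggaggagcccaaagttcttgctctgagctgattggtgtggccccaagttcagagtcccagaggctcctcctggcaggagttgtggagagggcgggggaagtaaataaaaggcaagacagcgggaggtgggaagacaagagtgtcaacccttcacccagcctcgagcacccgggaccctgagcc
Ucp3: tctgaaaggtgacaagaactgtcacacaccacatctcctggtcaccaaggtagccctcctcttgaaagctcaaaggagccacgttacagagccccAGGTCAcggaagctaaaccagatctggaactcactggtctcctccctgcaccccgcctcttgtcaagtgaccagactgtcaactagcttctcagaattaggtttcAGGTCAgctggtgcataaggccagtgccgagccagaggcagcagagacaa
Angptl4: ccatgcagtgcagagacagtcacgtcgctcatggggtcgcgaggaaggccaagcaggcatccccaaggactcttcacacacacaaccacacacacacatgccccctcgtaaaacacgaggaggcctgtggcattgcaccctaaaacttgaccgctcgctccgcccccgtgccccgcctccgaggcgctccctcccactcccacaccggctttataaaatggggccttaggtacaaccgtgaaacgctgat

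The window searched ran on to 50 bases after the start. Ucp3 held the hexamer at 155 and at 50 bases before its start, and Pdk4 and Angptl4 held none. Of 33469 rat promoters of this length, 16.2% held at least 1 match and 1.81% at least 2. The longer motif AGGTCANAGGTCA, the paired site of PPAR and RXR, which contains the hexamer, was in none of the 3 and in 0.0538% of all promoters. TGTTTAC, the FOXO motif, was in 3.78% of all promoters and TCACNCCAC, an SREBP motif, in 1.12%, and neither was in these 3. Of 7 other genes named below that have an entry (Pik3c2g, Slc27a1, Plin5, Cpt1a, Pex11a, Scd2 and Srebf2), Slc27a1 and Plin5 held 1 hexamer each and none held another motif. A match is letters only and shows no binding. Only exact letters in this window were searched, so the lack of a match does not show that a gene lacks such a site.

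Pdk4 ran through the 24 rats without a gap between classes. In the slide-centred table the high class spanned 0.49 (SED 5) to 1.64 (SED 1), and the next array, TR 5, stood at 0.48. The low class spanned -2.11 (TR 6) to -0.44 (TR 4), and the nearest middle array, DETR 2, stood at -0.23. On the scale of the 75th percentile, the mean was -0.15 ± 0.54 (SD, n = 8) in the high class, -1.16 ± 0.32 in the middle and -2.18 ± 0.48 in the low class, a high over low ratio of 4.08. Each class held all 3 training groups. The high class had 4 SED, 2 DETR and 2 TR rats, and the low class had 2 SED, 3 DETR and 3 TR rats. Pdk4 averaged -0.87 ± 0.95 in SED, -1.39 ± 0.85 in DETR and -1.24 ± 1.09 in TR (SD, n = 8 each), so these group means differed by less than the SD within any of the groups. They are not slide-centred, and slide 1 held no TR rat and slide 2 no DETR rat. Training group and slide were thus partly confounded, and centring on slides can take off part of a group difference. Group means of some genes named below lay further apart than those of Pdk4. Pex11a averaged -0.62 ± 0.56 in SED, -1.42 ± 0.78 in DETR and -1.65 ± 0.80 in TR. Agpat2 averaged -1.89 ± 0.38, -2.37 ± 0.35 and -2.52 ± 0.49 in the same order (SD, n = 8 each). The main fit had no training group term.

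**Figure D1:**
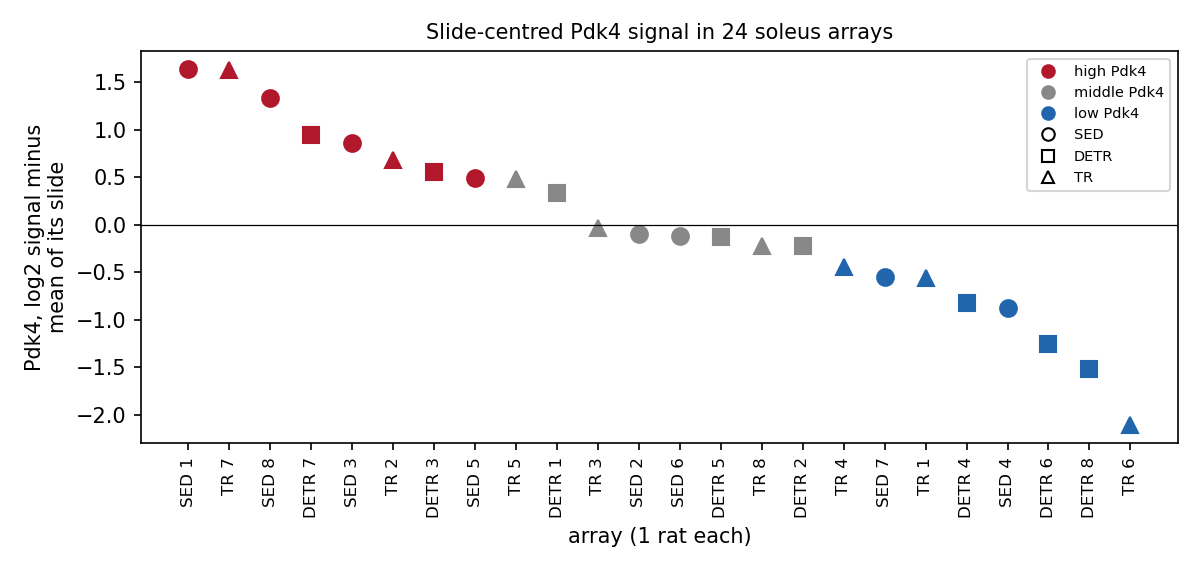
Pdk4 in the 24 arrays in rank order (x axis, 1 rat each) as log2 signal minus the mean of its slide (y axis). Colours mark the classes and symbols the training groups: the high class spans 0.49 to 1.64, the low class -2.11 to -0.44, and all 3 groups occur in each.

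Slides 2 and 3 gave 3 arrays to each of these 2 classes and slide 1 gave 2 to each, so slide is balanced between them. The 75th percentile of signal ranged from 95.5 to 1382 (median 730.6) in the high class and from 185.6 to 1438 (median 933.2) in the low class. Slide 3 was the dimmest and was scanned on another day. The median coefficient of variation between spots of 1 probe was 24.4% on TR 2, in the high class, against a class median of 5.88% in the high and 5.62% in the low class. All 16 tested markers of slow fibres, the main fibre type of the soleus, Myh7 among them, were well above background on all 24 arrays. The mean over the fast fibre markers differed widely between arrays, as given below.

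Angptl4 rose with Pdk4. It lay between 0.52 and 1.78 in the high class (median 0.97), between -1.87 and 0.54 in the middle class (median -0.74), and between -3.87 and -0.14 in the low class (median -2.83). The high and low classes did not overlap: the lowest high array was TR 2, the highest low array was TR 1, and the second highest low array, TR 4, stood at -1.72. The mean was 1.09 ± 0.50 in the high and -2.52 ± 1.16 in the low class (SD, n = 8), a difference of 3.61 ± 0.39 (SE) or 12.2-fold, with adjusted p = 0.003 in limma. The difference was 3.58 among SED, 4.40 among DETR and 2.75 among TR rats alone, and 4.49, 2.59 and 4.04 within slides 1, 2 and 3. None of these 6 smaller fits passed (adjusted p 0.247 to 0.966). With only the 6 highest and 6 lowest arrays it was 3.72 with adjusted p = 0.127.

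Ucp3 rose with Pdk4 as well. It lay between 2.05 and 3.27 in the high class (median 2.56), between -0.22 and 2.14 in the middle class (median 1.66), and between -2.34 and 0.59 in the low class (median -0.09). Every high array stood above every low array, and the middle class reached into the lower end of the high class and into the range of the low class. The means were 2.57 ± 0.39 and -0.47 ± 1.08 (SD, n = 8), a difference of 3.04 ± 0.35 (SE) or 8.22-fold, with adjusted p = 0.00382 in limma. It was 2.57, 3.06 and 3.20 among SED, DETR and TR rats alone, and 2.73, 2.50 and 3.78 within slides 1, 2 and 3, and none of these fits passed (adjusted p 0.301 to 1.0).

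These were the only features that passed an adjusted p of 0.05 in either direction, 0.00985% of those tested, both higher. At an unadjusted p under 0.05, 2.7% of features (548) were higher and 0.876% (178) lower, beside the 1016 in total that 0.05 of the features tested would make, and without DETR 7 the total of 726 became 1536. The 10 arrays of slides 1 and 2 alone gave differences of 3.35 ± 0.54 for Angptl4 (adjusted p = 0.876) and 2.60 ± 0.31 for Ucp3 (adjusted p = 0.256), and no feature passed limma's test there, with 863 under an unadjusted 0.05. Leaving out each of the 16 arrays in turn kept both genes past the threshold, with Angptl4 between 3.45 and 3.92 and Ucp3 between 2.81 and 3.23.

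In 0.0492% of features (10) every slide-centred value of the high class lay above every value of the low class, and in 0.00492% (1) below. The 10 include Angptl4, Ucp3 and Pik3c2g, and, chosen after their values were seen, Epas1, which encodes the hypoxia-inducible factor HIF-2 alpha (0.42 ± 0.08), Abhd6, a monoacylglycerol lipase (0.47 ± 0.11), and Preb, a factor of the secretory pathway (0.57 ± 0.14). The 1 below was Marcksl1, a substrate of protein kinase C (-0.33 ± 0.11).

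Pik3c2g, which encodes the gamma class II phosphoinositide 3-kinase, had the pattern most like Pdk4 over the 24 slide-centred arrays, with Pearson's r = 0.943 as a description. It lay between -2.47 and -1.09 in the high class (median -2.26), between -3.78 and -2.27 in the middle class, and between -5.33 and -2.66 in the low class (median -3.94). The high and low classes did not overlap, and the probe was well above background on 8 high and 6 low arrays. The difference of 1.90 ± 0.30 had an adjusted p of 0.0891 and did not pass. It passed when all 24 arrays entered the fit with the middle class as a class of its own (adjusted p = 0.00152). The other genes most like Pdk4 were Ucp3 (r = 0.926), Angptl4 (0.882), Slc27a1, a fatty acid transport protein (0.862), and Phlda3, a p53-induced repressor of Akt (0.802). Slc27a1 spanned 0.16 to 1.1 in the high class and -0.49 to 0.31 in the low class, with a difference of 0.76 ± 0.16, and Phlda3 differed by 0.92 ± 0.31; neither passed.

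**Figure D2:**
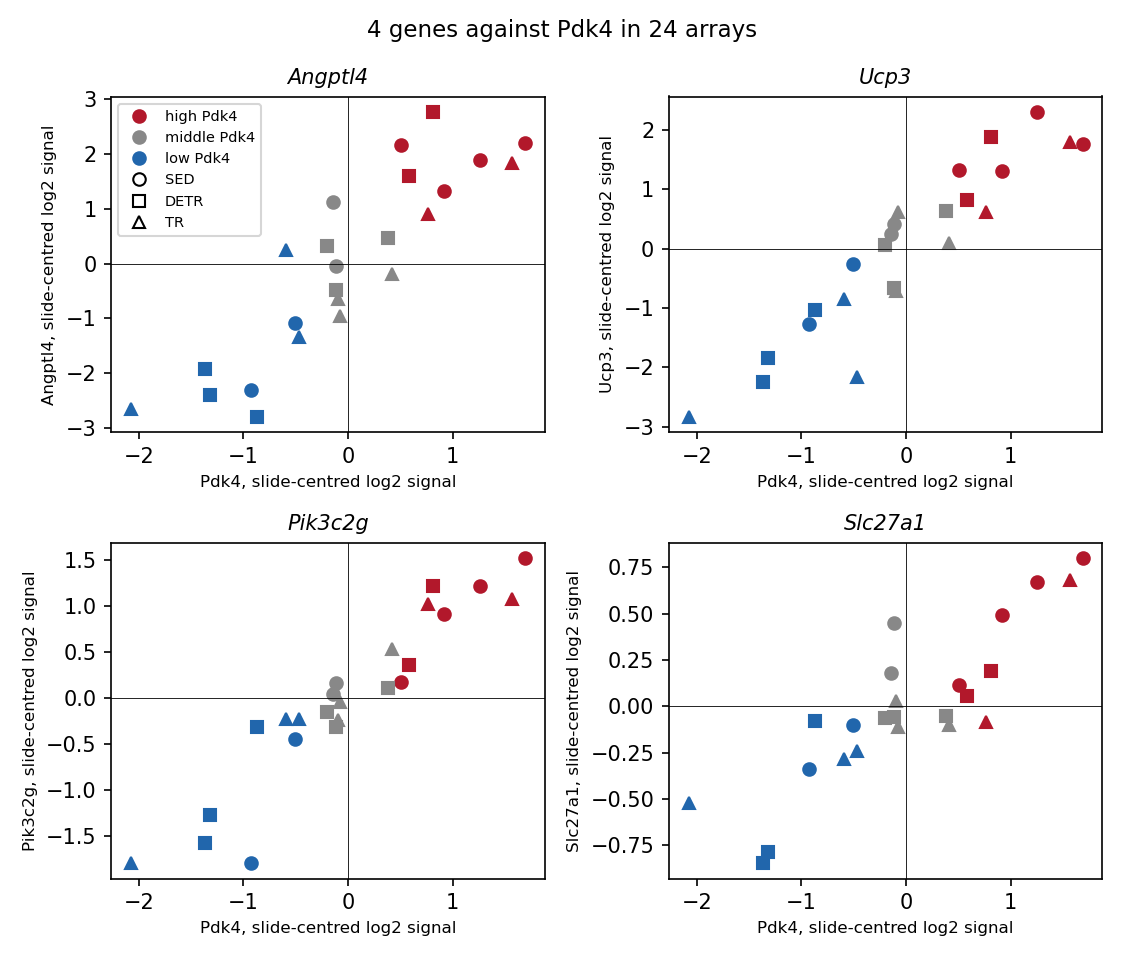
Slide-centred log2 signal of Angptl4, Ucp3, Pik3c2g and Slc27a1 (y axes) against slide-centred log2 Pdk4 signal (x axes) in 24 arrays, coloured by class with symbols for the training groups. The high and low classes do not overlap for Angptl4, Ucp3 and Pik3c2g, and r with Pdk4 is 0.882, 0.926, 0.943 and 0.862.

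A slope on slide-centred Pdk4 over all 24 arrays, which uses the middle class too, passed an adjusted p of 0.05 with a positive sign in 13 features (0.064%) and with a negative sign in 1 (0.00492%). Per log2 unit of Pdk4, Ucp3 rose by 1.39 ± 0.11 (SE, adjusted p = 1.96e-07), Angptl4 by 1.56 ± 0.18 (5.01e-05), Pik3c2g by 0.93 ± 0.07 (7.3e-08) and Slc27a1 by 0.38 ± 0.05 (7.69e-04). Cpt1a, which makes the acylcarnitines that carry fatty acids into mitochondria, rose by 0.50 ± 0.09 (0.041), Plin5, a lipid droplet coat protein of oxidative tissue, by 0.55 ± 0.10 (0.041), and Gpam, the first step of triglyceride synthesis from glycerol phosphate, by 0.40 ± 0.07 (0.041). Pex11a, a protein of peroxisome division, rose by 0.51 ± 0.10 (0.0422), and Nudt7 and Pank1, which break down and make coenzyme A, by 0.34 ± 0.06 and 0.33 ± 0.06 (0.041 each). Phlda3 rose by 0.55 ± 0.09 (0.012). Plbd1 (0.21 ± 0.04) and Slf1 (0.28 ± 0.05) complete the 13. Scd2, a desaturase of newly made fatty acids, was the only 1 to fall, by -0.34 ± 0.06 (0.041). Apart from Ucp3, Angptl4, Pik3c2g, Slc27a1, Phlda3, Plin5, Cpt1a and Scd2, these genes are named after their values were seen.

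Among known PPAR targets of the fuel switch, 30 of 32 tested members had a difference above 0 and the median was 0.26, beside 58% of all features above 0 and a median of 0.03. Of these 32, 2 passed the adjusted threshold, 13 were higher at an unadjusted p under 0.05 and 1 lower, against the 2.7% and 0.876% above. These shares of all features, and the 58% above 0, are the reference for the counts of every list below. With the slope on Pdk4, 4 members passed (Angptl4, Ucp3, Plin5 and Cpt1a). Plin5 spanned -3.02 to -1.34 in the high class (median -2.02) and -4.29 to -2.37 in the low class (median -3.13), so the classes overlapped. It differed by 1.14 ± 0.27, and Cpt1a by 0.95 ± 0.27. Retsat, retinol saturase, differed by 0.82 ± 0.19.

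Other members of the list had differences closer to 0. The thioesterases Acot1 and Acot2 differed by 0.32 ± 0.12 and 0.33 ± 0.12, Fabp3, the fatty acid binding protein of heart and muscle, by 0.40 ± 0.16, and Cpt1b, the muscle isoform of Cpt1a, by 0.25 ± 0.11. Plin2 (0.22 ± 0.10), Slc25a20 (0.20 ± 0.12) and Mlycd, malonyl-CoA decarboxylase (0.58 ± 0.51), had larger errors for their size. Mlycd differed by 1.09 without TR 2, and its sign turned within slide 2 (-0.68) and among TR rats alone (-1.54). Cd36, the main fatty acid transporter of muscle, differed by 0.08 ± 0.18. Txnip, an inhibitor of glucose uptake, differed by 0.36 ± 0.22. The 2 members below 0 were Vldlr (-0.27 ± 0.12) and Gpd1 (-0.30 ± 0.19). Apart from Angptl4, Ucp3 and Pik3c2g, adjusted p in the comparison of the 2 classes was 0.870 to 0.990 for the 96 other genes named by rule or after their values were seen.

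**Figure D3:**
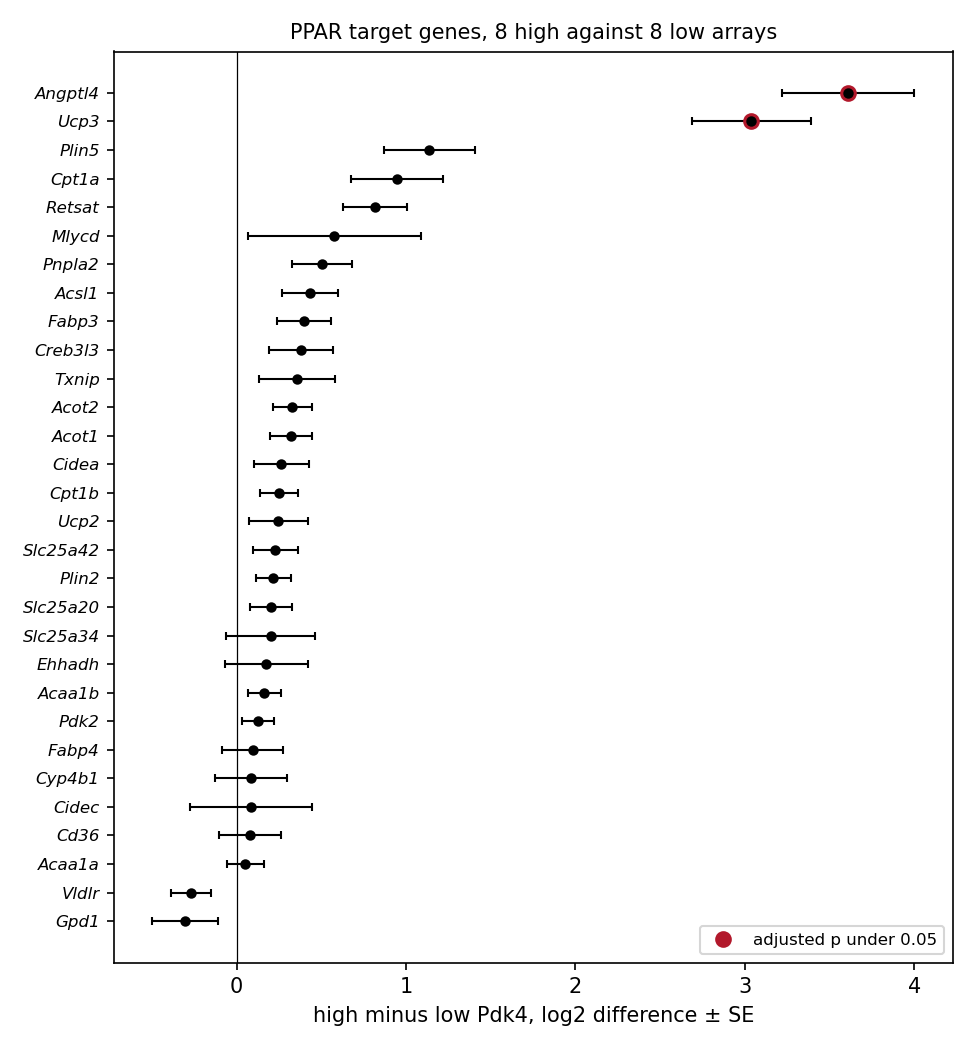
High minus low Pdk4 difference in log2 signal (x axis, points with SE bars) for 30 of the 32 tested PPAR target genes (y axis), 8 against 8 arrays. Angptl4 (3.61) and Ucp3 (3.04), drawn as larger red points, passed an adjusted p of 0.05, and 28 of the 30 members drawn lie above 0.

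Fatty acid uptake genes had 12 of 19 members above 0 (63.2%, beside 58% of all features) and a median of 0.08, with 5 higher and 2 lower at an unadjusted p under 0.05 and none past the adjusted threshold. Those higher were Slc27a1, Gpihbp1, which holds lipoprotein lipase on the capillary wall (0.50 ± 0.19), Lpl, lipoprotein lipase itself (0.30 ± 0.11), Acsl1, which activates fatty acids (0.43 ± 0.16), and Fabp3. Those lower were Acsl6, another enzyme that activates fatty acids (-0.37 ± 0.16), and Vldlr, a lipoprotein receptor, and differences in the list ran from -0.74 to 0.76. Without the 4 arrays with the lowest fast fibre signal, described below, the median of the list was -0.01. Mitochondrial beta-oxidation genes had 17 of 26 members above 0 (65.4%) and a median of 0.08 (0.03 to 0.22 over the alternatives, the lowest without DETR 8). At an unadjusted p under 0.05, 6 were higher and 0 lower, against 2.7% and 0.876% of all features. The 6 were Cpt1a, Cpt1b, Cpt2 (0.28 ± 0.12) and the isomerases Ech1 (0.42 ± 0.14), Eci1 (0.43 ± 0.16) and Eci2 (0.33 ± 0.11). The slide-centred mean over the list overlapped widely between classes. It ran from -0.23 to 0.28 in the high class (median 0.05) and from -0.32 to 0.16 in the low class (median -0.01).

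Triglyceride storage and lipolysis genes had 17 of 22 members above 0 (77.3%, beside 58% of all features) and a median of 0.23, with 7 higher and 1 lower at an unadjusted p under 0.05, against 2.7% and 0.876% of all features, and none past the adjusted threshold. Gpam differed by 0.84 ± 0.20, Gpat3, a second acyltransferase of the same step, by 0.55 ± 0.20, Agpat2, the next acyltransferase, by 0.47 ± 0.22, and Dgat1, which completes triglyceride, by 0.28 ± 0.12. Fitm2, a protein of lipid droplet formation, differed by 0.40 ± 0.15 and Pnpla2, the lipase that starts triglyceride breakdown, by 0.50 ± 0.18. Plin3, a droplet coat protein found in most cells, ran the other way at -0.57 ± 0.12.

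Fatty acid synthesis genes had 8 of 20 members above 0 and a median of -0.11, with 2 higher and 3 lower at an unadjusted p under 0.05 and none past the adjusted threshold. Fasn, fatty acid synthase, spanned -2.06 to -0.91 in the high class (median -1.62) and -1.62 to 0.55 in the low class (median -0.79), so the classes overlapped, and differed by -0.81 ± 0.23. Scd2 spanned -1.37 to 0.28 and -0.96 to 0.51 in these classes and differed by -0.70 ± 0.19, and its paralogue Scd by -1.24 ± 0.47. Scd spanned -3.70 to -2.95 in the high class and -3.63 to 1.19 in the low class, and its difference was -0.78 without DETR 6 and -3.03, -0.10 and -1.17 within slides 1, 2 and 3. How far the array's probes tell Scd and Scd2 apart was not tested. Srebf1, a regulator of this pathway, differed by -0.36 ± 0.22 and Thrsp by -0.34 ± 0.16. Acacb, whose product makes the malonyl-CoA that restrains Cpt1, was among those above 0 (0.29 ± 0.12).

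The 5 genes most opposite to Pdk4 over the 24 arrays were Srebf2 (r = -0.776), the regulator of cholesterol synthesis, Scd2 (-0.766), Bcar1 (-0.758), an adaptor of integrin signalling, Ppp1r3c (-0.722), which targets protein phosphatase 1 to glycogen, and Plin3 (-0.702). Srebf2 differed by -0.35 ± 0.10, Bcar1 by -0.18 ± 0.08 and Ppp1r3c by -0.48 ± 0.18. Since no gene passed in the lower direction, the 15 with the smallest p were taken, and these were Plin3, Antxr1, Frmpd1, Slc16a3, C8h3orf18, Scd2, Mafa, Fasn, Sqle, Srebf2, Ttll6, LOC102556082, Pkd2l1, Ache and Prss23. Slc16a3, the lactate exporter MCT4 of fast fibres, spanned 0.57 to 3.02 in the high class and 2.08 to 3.17 in the low class and differed by -1.05 ± 0.27. Sqle, squalene epoxidase of cholesterol synthesis, differed by -0.89 ± 0.26 and Ache, acetylcholinesterase, by -0.66 ± 0.21. The remaining 8 of these lay between -0.48 and -0.63. Among them, Ttll6 was well above background on 2 high, 6 middle and 5 low arrays. Mafa was so on 3, 6 and 6, and LOC102556082 on 5, 6 and 7. These falls therefore lie close to background, and the filter kept Ttll6 and Mafa mostly through arrays outside the high class.

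**Figure D4:**
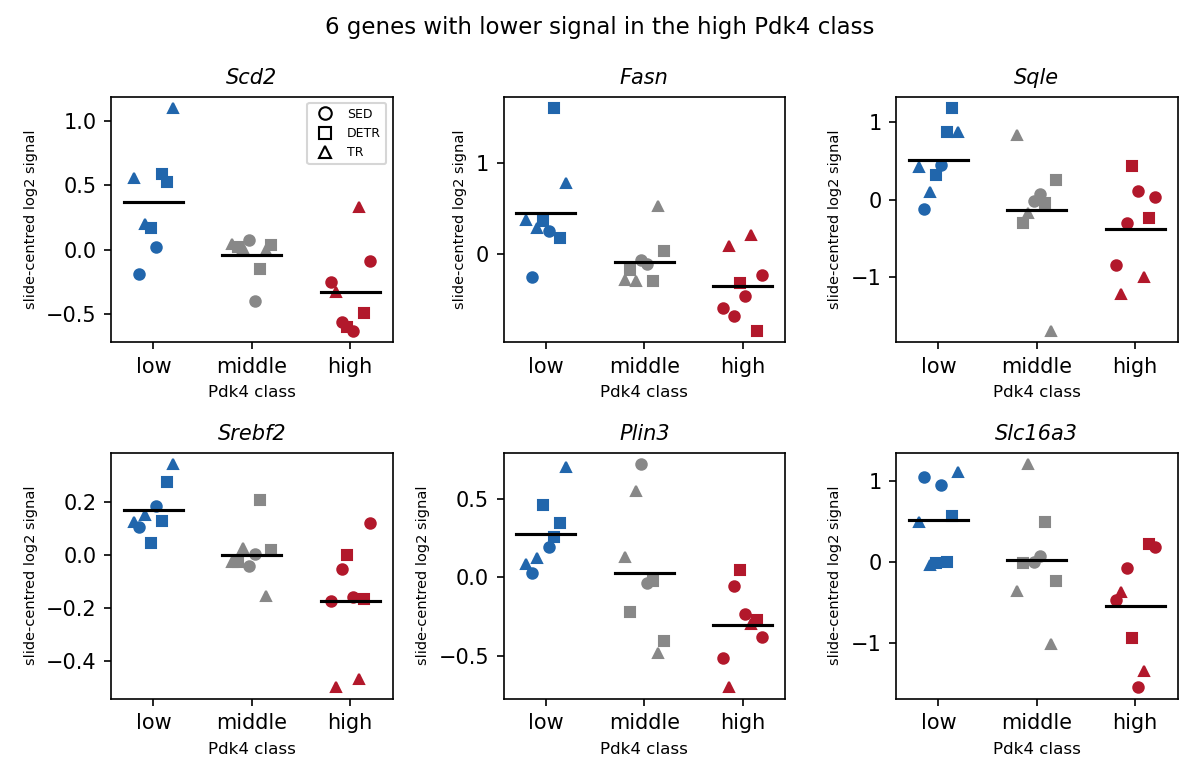
Slide-centred log2 signal (y axes) of Scd2, Fasn, Sqle, Srebf2, Plin3 and Slc16a3 in the low, middle and high Pdk4 classes (x axes), 1 point per rat with symbols for the training groups and bars at class means. Class means are lowest in the high class in all 6 panels, with high minus low at -0.70 for Scd2 and -1.05 for Slc16a3, and the classes overlap.

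None of the regulators of this programme passed the test. Ppara differed by -0.18 ± 0.14, Ppard by 0.01 ± 0.12 and the coactivator Ppargc1a by -0.23 ± 0.12, and of 29 tested PPAR, ERR and PGC-1 regulators none was under an unadjusted 0.05. Of the 14 tested genes of the pyruvate dehydrogenase complex and its other regulators, 8 lay above 0 and none was under 0.05; Pdk2, a second kinase of the complex, differed by 0.12 ± 0.10 and Pdp1, its phosphatase, by -0.19 ± 0.16. FOXO targets had 19 of 32 above 0 and a median of 0.02. At an unadjusted p under 0.05, 3 of them were higher and 0 lower, against 2.7% and 0.876% of all features. None passed the adjusted threshold, and the ubiquitin ligases Fbxo32 and Trim63 differed by 0.12 ± 0.11 and 0.03 ± 0.13. Foxo1 had no probe of that name. Glucocorticoid receptor targets had 13 of 27 above 0 and a median of -0.02. At an unadjusted p under 0.05, 2 of these were higher, Angptl4 among them, and 1 lower. Apart from Angptl4, which is on that list too, the steroid-induced genes Fkbp5 (-0.09 ± 0.24), Tsc22d3 (-0.03 ± 0.10), Klf15 (-0.11 ± 0.16) and Cebpd (0.30 ± 0.22) did not pass. The clock list had 10 of 20 above 0, with Per1 at 0.20 ± 0.16.

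Glucose genes were split in sign. Of 26 tested glycolysis genes 14 lay above 0, with 0 higher and 2 lower (Slc16a3 and Ldha, -0.32 ± 0.14) at an unadjusted p under 0.05. Slc2a4, the insulin-responsive glucose transporter, differed by -0.06 ± 0.10, Hk2, hexokinase, by 0.18 ± 0.11, and Irs2, an insulin receptor substrate, by -0.62 ± 0.39 (-0.35 without TR 2, -0.39 without SED 4, and 0.14 within slide 1). Among glycogen genes the targeting subunits of protein phosphatase 1 split in sign, with Ppp1r3b at 0.54 ± 0.25, Ppp1r3d at 0.38 ± 0.14 and Ppp1r3c at -0.48 ± 0.18. Citrate cycle genes had 7 of 20 above 0 and a median of -0.01. OXPHOS subunits had 10 of 45 above 0 and a median of -0.06, and without slide 3 they had 32 above 0 and a median of 0.03. Mt2A, a metallothionein, differed by -0.40 ± 0.53.

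**Figure D5:**
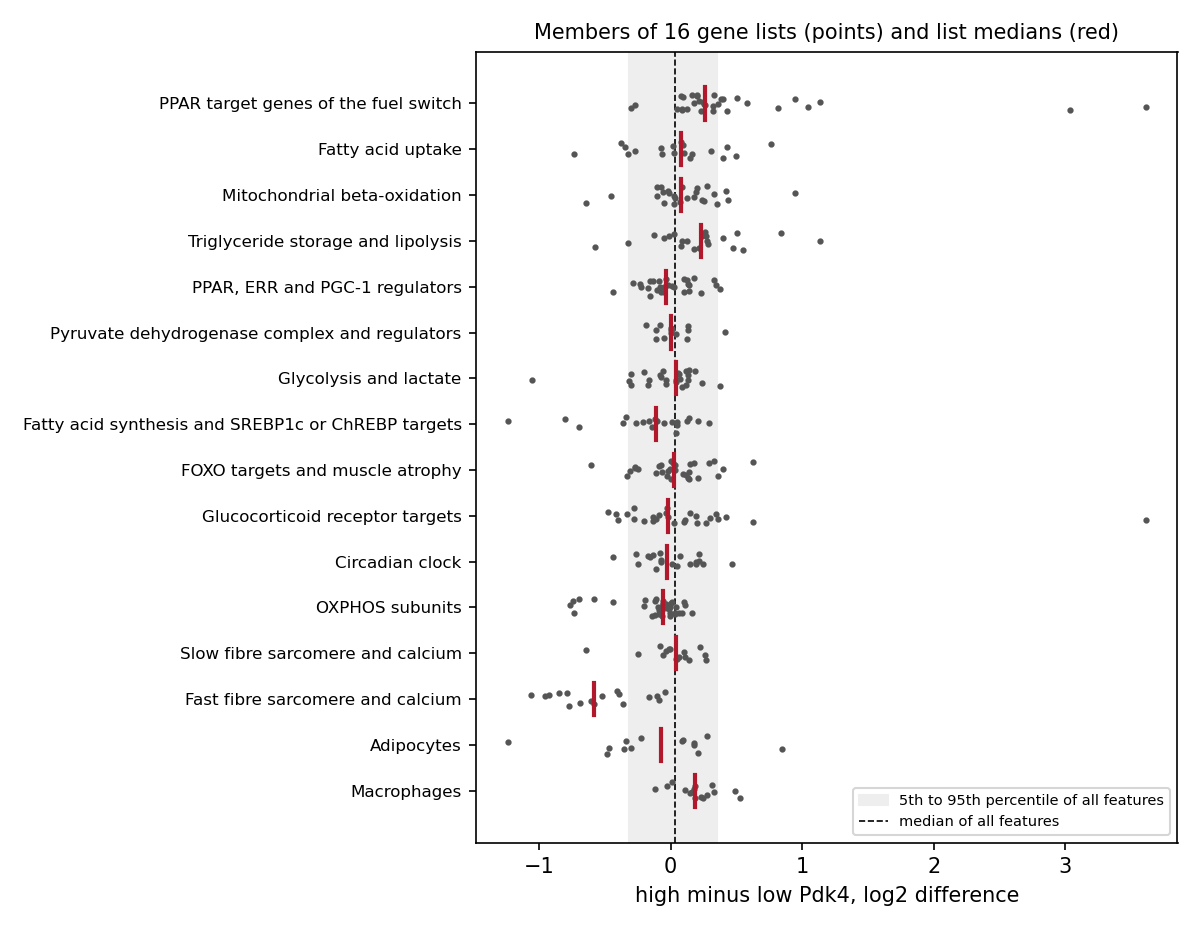
High minus low Pdk4 difference in log2 signal (x axis) of each tested member (grey points) of 16 gene lists (y axis), with list medians in red, the median of all features (0.03) as a dashed line and their 5th to 95th percentile as a band. The PPAR target and triglyceride lists have medians of 0.26 and 0.23 and the fast fibre list one of -0.58.

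Fast fibre genes had lower values in the high than in the low class, none of them past the adjusted threshold. All 17 tested fast fibre sarcomere and calcium genes lay below 0, with a median of -0.58, 0 higher and 3 lower at an unadjusted p under 0.05: Atp2a1, the fast calcium pump (-0.61 ± 0.22), Pvalb, parvalbumin (-0.78 ± 0.30), and Myl11, the fast regulatory light chain (-0.96 ± 0.38). Single myosins had wide errors, with Myh2 at -1.06 ± 1.02, Myh1 at -0.79 ± 0.99 and Myh4 at -0.52 ± 0.58, while the slow myosin Myh7 differed by -0.08 ± 0.12 and the slow list had 9 of 16 above 0. The mean over the fast list ranged from 1.12 to 4.71 in the high class (median 3.63), 1.80 to 4.37 in the middle (4.05) and 1.88 to 5.15 in the low class (4.47), so the classes overlapped. With slide means taken off, the medians were -0.06 in the high, -0.36 in the middle and 0.50 in the low class. The middle class thus stood below the high class on that scale, with no steady fall from low to high Pdk4. In bulk muscle, fewer fast fibres and less fast RNA per fibre cannot be told apart. Tnni2, the fast troponin I, stood at 0.18 on SED 3 and 0.47 on TR 2 in the high class and at 0.35 on TR 4 and 1.32 on TR 1 in the low class, and at 5.83 or more on the other class arrays. Without these 4 arrays, left out after the data were seen, Angptl4 differed by 4.26 (adjusted p = 1.64e-04) and Ucp3 by 3.23 (adjusted p = 0.0977), so 1 feature passed, the PPAR target median was 0.27 with 27 of 32 above 0, and the fast list median was -0.72.

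Markers of other cells had no member past the adjusted threshold. Adipocyte markers, of which 8 of 14 were well above background on every array, had 7 above 0 and a median of -0.07, with Adipoq at -0.47 and Aqp7, the glycerol channel, at 0.85 ± 0.24. Their mean per array ranged from -2.59 to -1.49 in the high and -2.22 to -1.58 in the low class. Macrophage markers had 14 of 16 above 0 and a median of 0.18 (0.01 with array weights), with 1, Cd163, under an unadjusted 0.05 (0.53 ± 0.18), and ranges of -1.21 to -0.45 and -1.61 to -0.68. Tendon markers had 2 of 13 above 0, endothelial markers 7 of 13, blood cell markers 3 of 10 and Schwann cell markers 8 of 10. At an unadjusted p under 0.05, 1 tendon marker was higher and 0 lower. For endothelial markers 2 were higher and 1 lower, and for blood and Schwann cell markers 0 and 0. The slide-centred mean of the tendon list had medians of -0.28 in the high, 0.63 in the middle and -0.46 in the low class. The part of any of these in the results was not tested.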

How the data were processed

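Cy3-labelled soleus RNA of 24 rats was measured on 1 Agilent array per rat, per the labels. Spot intensity values in the deposited scanner files are background-subtracted and detrended within each array by Agilent Feature Extraction (11.5.11.1 per the submitters' processing notes, 11.5.1.1 per the file headers). A deposited table gives the authors' log2 values of these arrays, with columns equal in distribution to within 0.0031, and served to rank Pdk4. Its tool is not stated in the labels. Added after the data were seen was the fit without the 4 arrays of lowest Tnni2.

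From 62976 spots per array, 4259 control spots and outlier spots were left out, log2 signal minus the array's 75th percentile was taken and spots of a probe were averaged (30367 probes). Of these, 19459 were named by accession through RefSeq (GRCr8), 4864 kept the file's name and 6044 had none. Where a gene had several probes, the one of highest mean stood for it. The filter kept features that 8 or more arrays showed well above background. limma 3.58.1 (R 4.3.3) fitted 16 arrays with class and slide, with Benjamini-Hochberg adjustment and a threshold of 0.05. The fit was run on simulated data with independent normal noise and no slide or shared array effects. That run cannot show how the test behaves where genes or arrays vary together. Figures were drawn with matplotlib.

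The design text gives 8 rats per group, so p-values rest on rat-to-rat spread, and the array number sets the precision. Named were the 15 largest differences past the threshold in each direction (or smallest p where none passed), up to 4 called members per list, a fixed set of 35 genes, and the 5 genes most like and most opposite to Pdk4; other genes were chosen after their values were seen. Not every gene taken by these rules is reported. The classes, lists and rules were chosen with earlier results of these data known, and Ucp3 was named as a marker of the classes with them in view. Alternatives covered normalization, background, filters, covariates, class rules, weights, prior, and arrays or slides left out.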

Additional observations from a re-analysis of the deposited data

Results flagged for a closer look

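Within the high and low classes, 12 of 200 combinations of class and gene had 1 array far from the other 7 by Dixon's criterion, which chance alone meets in about 1 in 20 groups. Of these, 6 concern TR 2, the array with the widest spread between spots of a probe, in the high class: Mlycd stood at 0.27 (others 3.45 to 4.55), Mt2A at -3.87 (others -0.46 to 2.08), Cd36 at 4.22 (others 5.19 to 5.77), Pfkm at 3.63 (others 4.65 to 5.13), Vldlr at -2.31 (others -1.81 to -1.44) and Marcksl1 at -2.41 (others -1.80 to -1.53). TR 7, also in the high class, stood above the others for Acacb (-1.29, others -2.39 to -1.93) and Ppp1r3b (-1.88, others -5.18 to -3.67) and below them for Cyp51 (-3.27, others -2.41 to -1.94). In the same class SED 5 was low for Pank1 (-0.35, others 0.56 to 1.22) and SED 8 for Gpat3 (-5.42, others -4.61 to -4.0). In the low class TR 4 was high for Fkbp5 (1.09, others -0.88 to -0.02).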

How the results depend on the processing

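Angptl4 and Ucp3 kept their direction in every alternative run. The number of features called was 2 or 3 except with Pdk4 as a continuous term (14), without the 4 arrays with the lowest Tnni2 (1), without slide 3 (0, from 10 arrays) and at an unadjusted p (726). Fits within 1 slide or 1 training group left neither Angptl4 nor Ucp3 past the threshold. The number at an unadjusted p under 0.05 was 240 without the slide term, 1092 with training group as a term and 1165 with array weights. It was 423 when probes had to be well above background on all arrays. In the labels, same-numbered arrays of the 3 groups share only a number. Of 24 such pairs, 1 had a residual correlation over 0.1 (median -0.01). Among pairs with other numbers from other groups, 36 of 168 did, up to 0.47, so some arrays shared variation outside group and slide. The fit with a replicate block called 2 features. Outside the fits within 1 slide or 1 training group, some genes that had not passed changed sign. Most did so from a difference near 0, and Myh1 and Mt2A from larger ones. Within 1 slide or 1 group more genes changed sign, also from larger differences. Among them, Adipoq reached 0.56, Cebpd -0.39, Txnip -0.17, Srebf1 0.13, Myh4 0.13, Irs2 0.14 and Mlycd -1.54. Ppard was -0.0206 in the authors' table, -0.0114 with quantile normalization, -0.00082 with a training term, -0.0632 with array weights, -0.0391 with uncentred Pdk4 and -0.00798 without the 4 arrays. Trim63 was -0.0289 with weights, -0.0401 with uncentred Pdk4 and -0.0481 without slide 3. Tsc22d3 was 0.00755 with normexp, 0.00095 with weights, 0.0293 with 6 against 6 arrays and 0.0295 without slide 3. Fkbp5 was 0.20 with the replicate block, 0.017 with uncentred Pdk4, 0.15 with 6 against 6 and 0.058 without the 4 arrays. Mt2A was 0.0829 with weights and 0.19 without the 4 arrays. With weights Myh1 was 0.36 and Myh7 0.0308. Ppara was 0.00304 with the continuous term, Klf15 0.0287 without the 4 arrays, and Cd36 -0.0523 and Slc2a4 0.0572 without slide 3. Leaving out 1 array gave ranges of -0.0478 to 0.0647 for Ppard, -0.055 to 0.0844 for Trim63, -0.0738 to 0.00177 for Tsc22d3, -0.22 to 0.0919 for Fkbp5, -0.67 to 0.12 for Mt2A and -0.00703 to 0.25 for Cd36. The causes were not tested. Dim probes are limited by signal over background.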

Other observations

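Cholesterol genes were listed after Sqle and Srebf2 had been seen. Of 23 tested genes of cholesterol synthesis and uptake, 5 lay above 0 (21.7%, beside 58% of all features) and the median was -0.12. At an unadjusted p under 0.05, 0 were higher and 3 lower, against 2.7% and 0.876% of all features. Sqle and Srebf2, which prompted the list, are counted in it. Besides Sqle and Srebf2, Cyp51, the lanosterol demethylase, was under an unadjusted 0.05 (-0.38 ± 0.14).

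Peroxisomal genes were listed after Pex11a and Nudt7 had been seen. Of 34 tested, 24 lay above 0 (70.6%, beside 58% of all features) and the median was 0.10. At an unadjusted p under 0.05, 7 were higher and 0 lower, against 2.7% and 0.876% of all features. Pex11a and Nudt7, which prompted the list, are counted in it, so these counts were in part fixed beforehand. They included Pex11a (1.16 ± 0.26), Nudt7 (0.70 ± 0.18), Ech1, Hsd17b4 (0.21 ± 0.07), Cat, catalase (0.43 ± 0.15), and Pex16 (0.26 ± 0.10). None passed an adjusted p of 0.05 between the classes, and no test of either list was run.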
